A study of Drosophila melanogaster with 4 samples.

Results

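The Antennapedia complex is 1 of the 2 Hox gene complexes of Drosophila melanogaster and lies on chromosome arm 3R. The peaks described here are those of a Cmi ChIP-seq experiment in embryos whose midpoint falls between 2480000 and 2830000 on 3R (FlyBase release 5), a stretch of 350 kb that runs from lab to Antp. It held 16 of the 685 peaks of 3R and of the 3110 peaks of the whole list. The stretch was set by position and not by any measured value, but the members and measures were chosen with earlier results of these data known. The embryos were of the strain Exd-GFP-13T, labelled 0 to 8 h, with the genotype w; PBac{y[+]-attP-3B}VK00033. They carried a transgene in which the coding region of extradenticle (exd), a Hox cofactor, ends in GFP. Chromatin was precipitated with a polyclonal rabbit antibody raised against the full-length Cmi protein (2 libraries), and 2 input DNA libraries came from the same strain and stage. All 4 libraries share the transgene, so there is no group without it. The sex of the embryos is unknown, and the whole embryo was used, so the cells that carried a given peak cannot be told apart. The extraction protocol describes another stock and a later collection window, and the strain and stage fields were followed here.

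Cmi, also called Lpt, belongs to the enzyme complex built around Trithorax-related (Trr), a methyltransferase for lysine 4 of histone H3 that is known for its work at enhancers. Proteins of the Trithorax group are known for keeping Hox genes active, against repression by the Polycomb group. The Antennapedia complex holds 5 homeotic genes, in the order lab, pb, Dfd, Scr and Antp, and 4 homeobox genes that no longer act as Hox genes. Of the homeotic genes, lab acts in the head segment before the jaws, pb in the adult mouthparts, Dfd in the jaw segments, Scr in the labial segment and the front of the thorax, and Antp in the thorax. Of the others, zen patterns the dorsal side of the embryo and zen2 is its close copy. The maternal gene bcd sets the front of the embryo, and ftz is a pair-rule gene of segmentation.

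In the gene table at hand, which belongs to release 6, the 9 genes lie in the order lab, pb, zen2, zen, bcd, Dfd, Scr, ftz, Antp. Between lab and pb it lists Edg84A and 7 Ccp84A genes, which encode cuticle proteins. Ama, which encodes a secreted protein of the immunoglobulin family, lies between bcd and Dfd. The interval from Dfd to Scr lists no protein-coding gene but holds the microRNA gene mir-10, 4 tRNA genes and 2 genes of the signal recognition particle RNA. Gene positions of release 5 were not used here. A peak is therefore named by its position and not by a gene, and the words lab side and Antp side below mean the lower and the higher coordinates of the stretch.

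The peaks were unevenly spread along the complex. No peak lay in the 106724 bases on the lab side, 10 lay in the 100 kb from 2580000 to 2679999, and the strongest signal stood close to the Antp side. Cut into parts of 50 kb from the lab side, the stretch held 0, 0, 3, 7, 2, 1 and 3 peaks. The bases under peaks in these parts were 0, 0, 1706, 3507, 587, 267 and 3442. The fullest part by peaks was thus the fourth, and the seventh held nearly as many bases with fewer peaks. When peaks with midpoints within 5 kb were chained, the 16 peaks made 7 units, which were a group of 3, a group of 7, a group of 2 and 4 single peaks. The peaks of the 3 groups were 12 of 16, and on 3R as a whole 462 of 685 peaks, or 67.4%, lay in such groups.

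**Figure D1:**
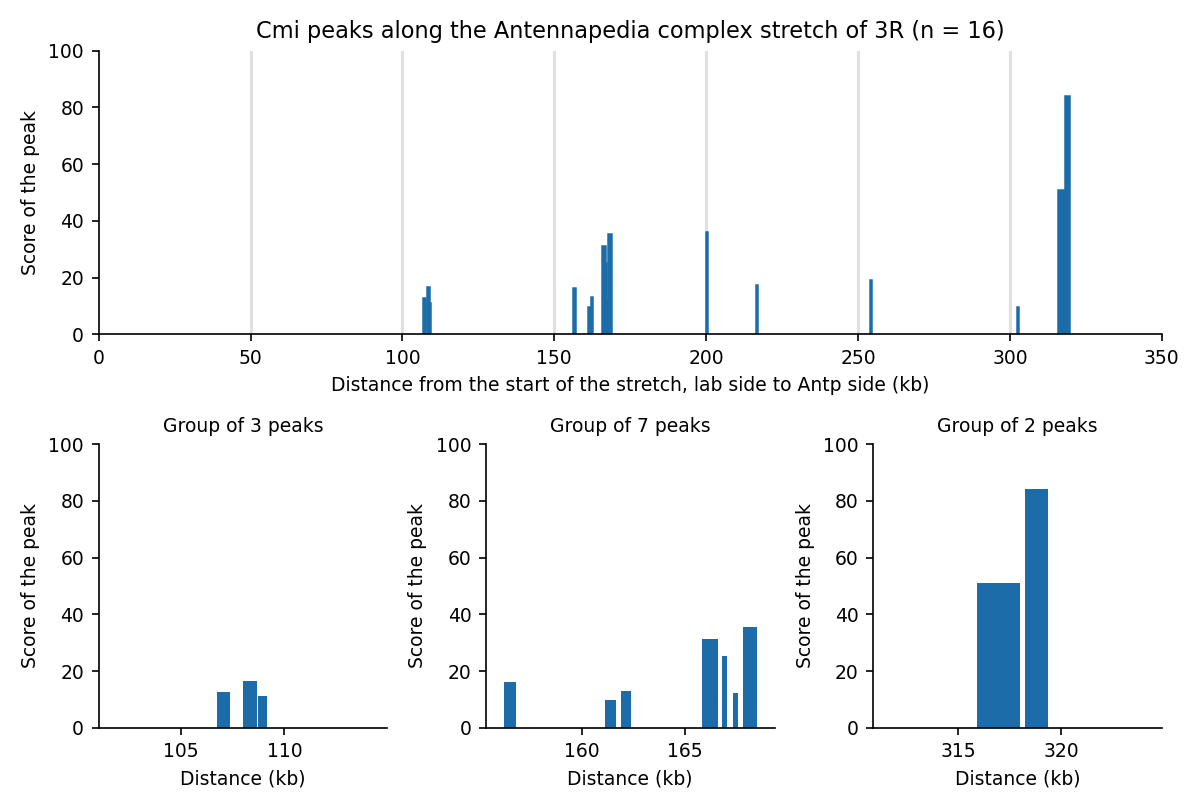
Score of each Cmi peak (vertical axis, as deposited, no unit) against its distance from the start of the stretch in kb, for all 16 peaks (top, with outlines that widen the bars so that narrow peaks can be seen) and for the 3 groups at true width (bottom). The first peak stands 107.0 kb from the start, the group of 7 peaks between 156.5 and 168.2 kb, and the highest peak, with a score of 84.1, at 318.8 kb.

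The group nearest the lab side held 3 peaks of low score packed into 2431 bases. They lay at 2586724 to 2587355 (632 bp, score 12.71), 2587993 to 2588650 (658 bp, score 16.66) and 2588739 to 2589154 (416 bp, score 11.09). Gaps of 637 and 88 bases separated them, so that peaks covered 70.2% of the group. Only the middle peak scored above 15.75, the median of the whole list. The next peak began 47088 bases further on.

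The group of 7 peaks ran from 2636243 to 2648516, near the middle of the stretch, and its members differed widely in score. It opened with a peak at 2636243 to 2636820 (578 bp, score 16.21). After a gap of 4320 bases came 2641141 to 2641642 (502 bp, score 9.64) and 2641929 to 2642404 (476 bp, score 13.13). These 3 weaker peaks were followed, 3408 bases on, by the strong part of the group, where 4 peaks stood within 2704 bases.

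In that strong part, 2 high peaks enclosed 2 narrow ones. The outer peaks were 2645813 to 2646588 (776 bp, score 31.29) and 2647830 to 2648516 (687 bp, score 35.42). Between them lay 2646783 to 2647062 (280 bp, score 25.16) and 2647359 to 2647566 (208 bp, score 12.30). Gaps of 194, 296 and 263 bases parted the 4 peaks. Over its whole length of 12274 bases the group was covered by peaks to 28.6%, and it held 36.9% of all bases under peaks in the complex. On 3R there were 373 such units at 5 kb, of which 6, this group included, held 7 or more peaks, and the largest held 12.

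From there toward the Antp side the peaks stood alone, all 4 of them narrow. The peak at 2680101 to 2680399 had the third highest score of the complex, 36.03, over only 299 bp. It was followed by 2696505 to 2696792 (288 bp, score 17.60), 2733902 to 2734168 (267 bp, score 19.03) and 2782492 to 2782692 (201 bp, score 9.56). The last of these had both the lowest score of the complex and the smallest width in the list, which it shared with 82 peaks in all. Stretches of 31584, 16105, 37109 and 48323 bases without a peak lay before these 4 peaks in turn.

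The pair of peaks closest to the Antp side was the strongest and widest site of the complex. The peak at 2795896 to 2797992 was 2097 bp wide with a score of 50.90, and the peak at 2798223 to 2799366 was 1144 bp wide with a score of 84.10. A gap of 230 bases parted them. They were the 2 of 16 peaks of the complex that were wider than 1 kb, as were 16.1% of the peaks of 3R. Together they made up 34.1% of its bases under peaks. By score the second of them ranked 12 among the 685 peaks of 3R and 42 in the whole list, and the first ranked 41 on 3R. By width the first ranked 14 on 3R. Joined across the gap they formed a region of 3471 bp, which ranked 20 by width among the 495 regions that 3R held after joining within 1 kb.

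The stretches without a peak were also uneven. The empty lab side of the complex was the end of a longer run without peaks, from 2254117 to 2586724, which was 332606 bases long and the 13th longest of the 684 intervals between neighbouring peaks of 3R. On 3R 85 such intervals were longer than 100 kb, and their median was 6336 bases. A stretch of 100 kb without a peak was common on the arm, since 35.4% of 2766 sliding stretches of that length (step 10 kb) held none. On the Antp side the last peak of the complex was followed by 101276 bases without a peak, of which 30634 lay inside the stretch. In the 100 kb before the stretch there was no peak, and in the 100 kb after it there were 3. With no depth known for any library, a stretch without a peak is not shown to lack Cmi.

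The complex carried more peaks than most stretches of 3R of its length, but it was not at the extreme of the arm. Its 16 peaks amount to 4.57 per 100 kb, where 3R from its first to its last peak had 2.47. Among 2670 sliding stretches of 350 kb on 3R that did not overlap the complex (step 10 kb), the median count was 7 peaks (quartiles 4 and 11), and the highest was 31. A count of 16 or more was found in 12.5% of them. These stretches formed 11 separate blocks of the arm, of which the fullest, from 24570000 to 25430000, reached 31 peaks in a stretch. The stretches overlap one another and are not replicates, so these shares describe the arm and give no p-value.

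The covered share gave a similar place. Peaks covered 9509 bases of the complex, or 2.72%, and 1.55% of 3R. The sliding stretches had a median covered share of 1.13% (quartiles 0.599% and 1.93%, highest 7.05%), and 16.1% of them reached that of the complex. The top score of 84.1 was reached in 11.8% of the stretches. For peaks above the upper quartile of the list's scores (28.44), 7.38% of the stretches held as many as the 5 of the complex. With peaks joined within 1 kb, the complex held 9 regions and 24.4% of the stretches held as many. Among the 125 stretches with 15 to 17 peaks, the median covered share was 2.91%, and 60.0% of these stretches had at least the share of the complex.

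**Figure D2:**
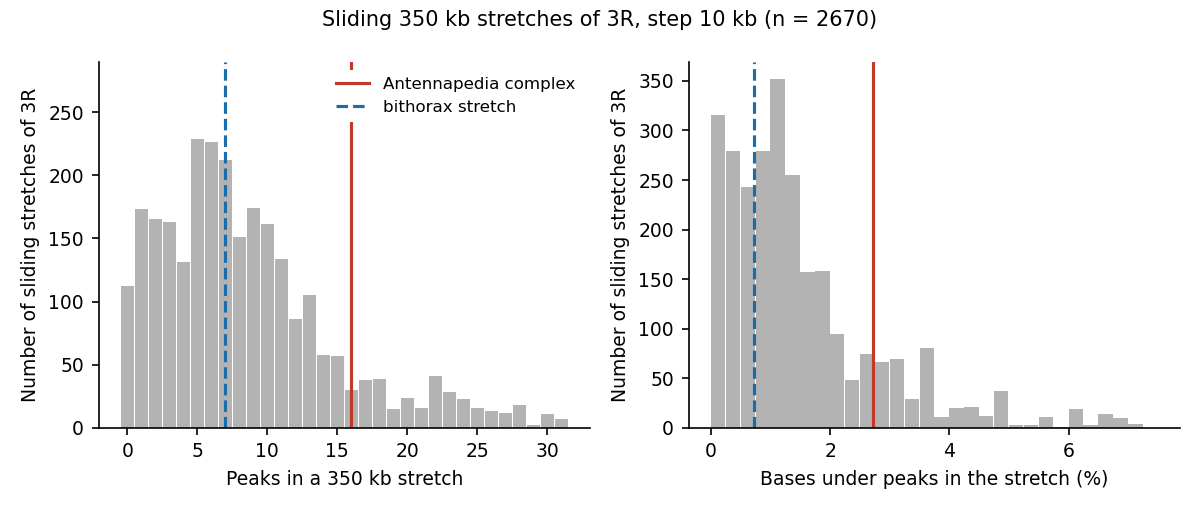
Number of sliding 350 kb stretches of 3R (vertical axes, n = 2670, step 10 kb, those overlapping the complex left out) by peaks per stretch (left) and by percent of bases under peaks (right). The solid line marks the Antennapedia complex, with 16 peaks and 2.72%, on the right flank of both distributions, and the dashed line marks the stretch holding the bithorax complex, with 7 peaks and 0.722%.

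The scores of the 16 peaks spanned much of the range of 3R. Their median was 17.13 (quartiles 12.61 and 32.32, range 9.56 to 84.10), while the 685 peaks of 3R had a median of 14.36 (quartiles 10.32 and 23.77, highest 209.5). Of the 16 peaks 10, or 62.5% (95% Wilson interval 38.6 to 81.5), lay above the median of the list, and 44.1% of the peaks of 3R did, a share inside that interval. Above its upper quartile lay 5, or 31.2% (95% Wilson interval 14.2 to 55.6), and 18.7% of the peaks of 3R lay there, again inside the interval. These 5 were the peak pair on the Antp side, the 2 outer peaks of the strong part of the group of 7, and the single peak at 2680101. The complex had 11 of 16 peaks, or 68.8% (95% Wilson interval 44.4 to 85.8), with another peak within 1 kb edge to edge, and 47.0% of the peaks of 3R had one, which also lies inside the interval. The intervals cover counting error of peaks only. They take each peak as an independent draw, which neighbouring peaks are not, so a share inside an interval decides nothing. No test was made, because the list has no value per library.

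Widths differed from scores in their order. The median width was 489 bp in the complex (quartiles 286 and 665.2 bp) and 471 bp on 3R (quartiles 296 and 783 bp). Each peak of the complex was set beside the peaks of 3R whose score lay within 20% of its own. The 4 single peaks were all among the narrowest 25% of these. The same share was not computed for the 223 single peaks of 3R, so narrow single peaks are not shown to be particular to the complex. For the peak at 2680101, with 299 bp, none of the 73 peaks of similar score was narrower, and their median was 997 bp. For the one at 2733902 it was 3 of 147 peaks, and for the one at 2696505 it was 7 of 142. The peak at 2782492 is at the smallest width of the list, where no peak can be narrower, and 18 of the 205 peaks of similar score, itself included, had this width.

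In the strong part of the group of 7, the inner peak at 2646783 (280 bp) was as narrow, with none of 106 peaks of similar score below it. Some other peaks were wider than most peaks of similar score. The widest by this measure was the peak at 2641141 in the group of 7, with 194 of 211 peaks of similar score narrower than its 502 bp, and its neighbours at 2636243 and 2641929 had 100 of 159 and 126 of 196 narrower. The 3 peaks of the group nearest the lab side had 167 of 199, 109 of 153 and 165 of 228 narrower. For the peak at 2795896, with 2097 bp, it was 21 of 26. The highest peak, at 2798223, was near the median of 1181.5 bp at its score, with 7 of 16 narrower than its 1144 bp. The peaks at 2645813 (32 of 91 narrower), 2647830 (13 of 79) and 2647359 (12 of 224) were narrower than most peaks of similar score. Taking all 16 peaks, 7 were among the narrowest 25% at their score. Score and width are both set by the peak caller from the height of the reads, and neighbouring peaks can be pieces of 1 enriched region, so the widths describe calls and not the extent of binding.

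**Figure D3:**
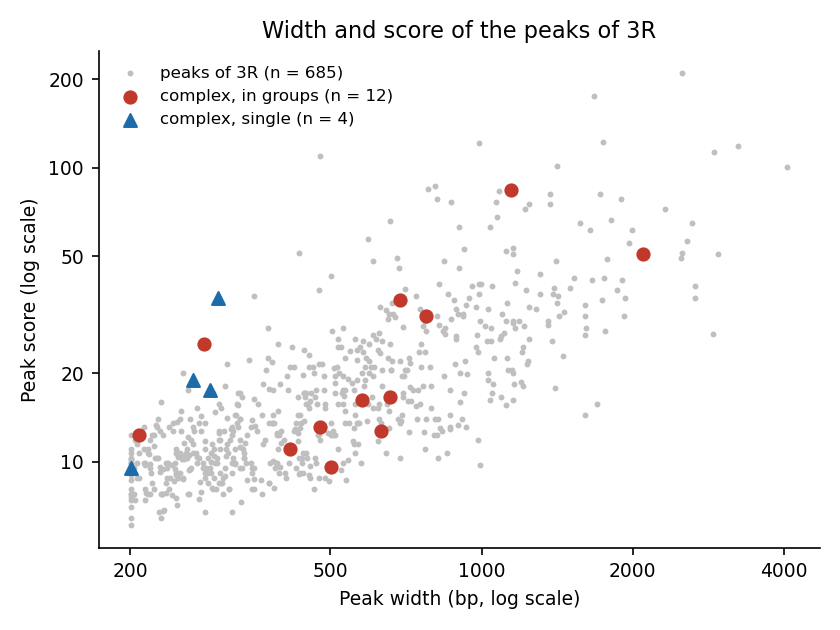
Score against width of the 685 peaks of 3R (grey points), both on log scales, with the 12 grouped peaks (circles) and the 4 single peaks (triangles) of the Antennapedia complex. The single peaks stand at 201 to 299 bp, on the narrow edge of the arm at scores from 9.56 to 36.03, while the pair of wide peaks stands at 1144 and 2097 bp.

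The deposited scores carry no unit, and their scale was read from the values. A Poisson background was chosen to match as many as possible of the 84 score values that recur 5 or more times in the list. With the best background, 31.1 reads, 80 of them fall within 0.01 of the −log10 probability of a whole number of reads or more. Since the background was fitted to these values, their match is no independent check of the scale. On this reading, 14 of the 16 peaks of the complex had a score that a whole read height gives against this 1 background, and on 3R it was 70.7% of the peaks. The heights ran from 72 reads, or 2.31 times the background, for the peak at 2782492 to 193 reads, or 6.20 times, for the peak at 2798223. The single peak at 2680101 had 125 reads, or 4.02 times the background. The peak at 2647830 had 124 reads (3.98 times) and that at 2645813 had 117 (3.76 times). The other 2 peaks, at 2641141 and 2795896, had scores off this series, and no height is given for them. Of the 14 peaks with a height, 8 lay below 3 times the background. The matching share of the peaks of 3R with a height was not computed, so 8 of 14 is not shown to be unusual. The lowest of the other peaks with a height, at 2733902 with 3.02 times, ranked 240 by score among the 685 peaks of 3R. That rank counts the peaks off the series too.

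The bithorax complex, the other Hox complex of the fly, holds Ubx, abd-A and Abd-B, which act in the rear thorax and the abdomen, and also lies on 3R. A stretch of the same length that holds it was placed from general knowledge of release 5, since no annotation of that release was used here. It held 7 peaks, from 12545712 to 12760475, with 0.722% of its bases covered. At least 7 peaks were found in 55.1% of the sliding stretches of 3R, and a covered share as large in 70.3%. These sliding stretches leave out those that overlap the Antennapedia complex, but not those that overlap the bithorax stretch. The Antennapedia complex thus had 2.29 times as many peaks and 3.76 times as many covered bases. The ratio of counts depends on where the bithorax stretch is placed. Moved by 50 kb to lower or higher coordinates, that stretch held 9 or 10 peaks. After joining within 1 kb the counts were closer, with 9 regions in the Antennapedia complex and still 7 in the bithorax stretch, a ratio of 1.29. This difference was not tested, since each complex is 1 place in 1 list.

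The peaks of both complexes differed in arrangement as well. In the bithorax stretch no peak had a neighbour within 1 kb or within 5 kb, whereas 11 and 12 of the 16 peaks of the Antennapedia complex had one. The median score was 10.70 in the bithorax stretch and 17.13 in the Antennapedia complex. The highest score was, in contrast, in the bithorax stretch, at 12624388 to 12624864, with 109.74 over only 477 bp. None of its 7 peaks was wider than 645 bp, and 5 of the 7 were among the narrowest 25% of the peaks of 3R at their score. One of these 5 is at the smallest width of the list, 201 bp. The peak at 12759831 was, on the other hand, wide for its score, with 219 of 231 peaks narrower.

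**Figure D4:**
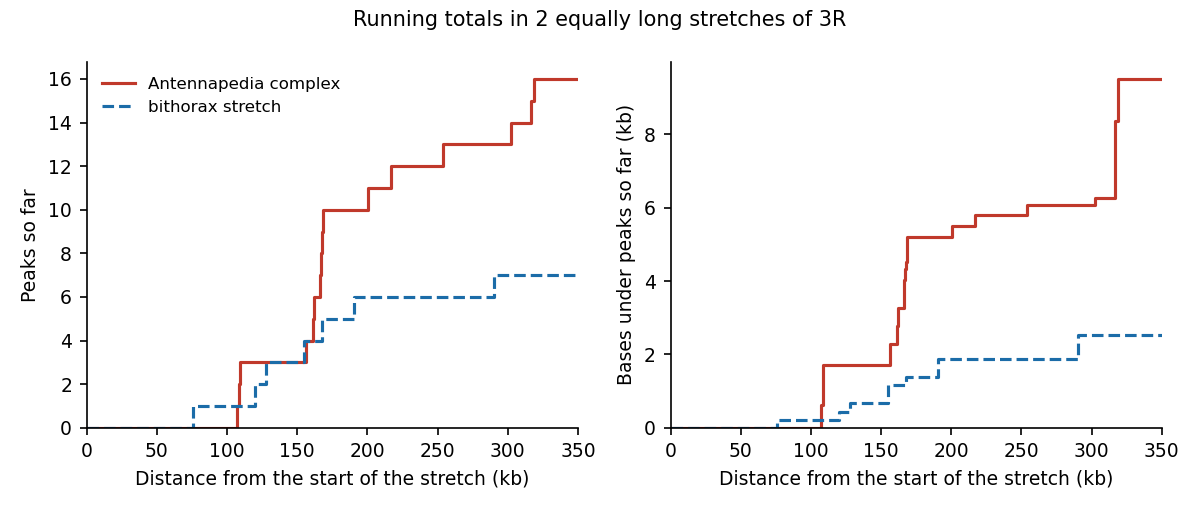
Running number of peaks (left) and running kb of bases under peaks (right) against the distance in kb from the start of each stretch, for the Antennapedia complex (solid) and the stretch holding the bithorax complex (dashed). The solid lines jump at the groups near 107, 166 and 318 kb and end at 16 peaks, while the dashed line rises in single steps to 7 peaks.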

How the data were processed

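Cmi ChIP-seq and input DNA were sequenced from Drosophila embryos. The submitters' processing notes name the build BDGP5 and the tools BWA, MACS2 and CASAVA (1.7.0.2 and 1.7.0.3). Thresholds, and whether replicates were pooled, are not stated there. The authors deposited 3110 peaks in 1 list, each with a score from the caller, on FlyBase release 5 per the file header. No column belongs to a library, so depth is unknown and nothing was tested across samples. The Poisson background behind the score was sought from 5 to 120 reads.

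Peaks were assigned by midpoint, with 1-based coordinates. Stretches of 350 kb slid over 3R from its first to its last peak in steps of 10 kb. Every peak of the complex is given. The members, the measures and the bithorax stretch were chosen with earlier results of these data known. The computations were tested on simulated data with planted peaks and backgrounds. Python 3.11.15, numpy 2.4.6, pandas 2.3.3 and scipy 1.17.1 were used. No sequence was used here.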

Additional observations from a re-analysis of the deposited data

How the results depend on the processing

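Of 32 alternatives, 25 stayed within 1.5 times the count or within the 95% interval of the value. The interval of a share of stretches was computed as if 3R held 78 independent stretches. That of the covered share took each base as independent. Neither holds, so these intervals are only a yardstick. Counting by any overlap or by whole peak width changed nothing, because no peak crosses an edge of either stretch. With peaks above the median score, the complex held 10 peaks and 6.97% of the stretches held as many; with those above the upper quartile it held 5. Joining within 1 kb left 9 regions in the complex and 7 in the bithorax stretch, and 24.4% of the stretches held as many. The bithorax stretch held 2 peaks above the median and 2 above the upper quartile. These subsets hold fewer peaks by construction. Moving the complex by 50 kb gave 13 and 16 peaks, and moving the bithorax stretch, whose place is from general knowledge, 9 and 10. The alternatives for the bithorax stretch, the empty stretches and the score tolerance were added after seeing the data. No paired analysis was possible because no value in the peak list belongs to a replicate, which also prevented leaving out a replicate. Overlap with genes was not computed, since no annotation of release 5 was used here.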
